A study of Rattus norvegicus with 12 samples.

Results

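Angptl4, Plin2, Pdk4, Cpt1a, Ucp2, Acadvl, Acadl, Acadm and Acaa2 are 9 genes that are switched on by PPAR nuclear receptors or carry out fatty acid oxidation. They were taken by symbol from the 31177 rows of the deposited count table, each matched 1 row, and all 9 passed the filter on low counts. Brain RNA was sequenced in 12 libraries, 4 in each of 3 groups: an Alzheimer's disease model kept on a high-fat diet (AD-HFD), the same disease model without that diet (AD), and sham controls (Sham). The labels give no strain, age, way of inducing the model, length of diet or brain region. They speak of mice, but the organism field names Rattus norvegicus and the gene identifiers are rat Ensembl genes, so the genes are treated as rat genes. The comparisons concern gene expression in the brain under the disease model, and under metabolic stress on top of it. Tissue content also differed between the groups, as described below. Animals given the diet without the disease model were not analysed here, so the diet can be seen only within the model. A library is named by its group and number, such as AD-3.

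PPARs are receptors that bind fatty acids and, paired with an RXR partner, switch on genes that store, transport and burn fat. Fatty acids reach the mitochondrial matrix through the carnitine shuttle, whose entry step is Cpt1, and are then shortened in repeated rounds of beta-oxidation that begin with an acyl-CoA dehydrogenase and end with a thiolase. In the brain this oxidation is known mainly from astrocytes, while neurons use little fat as fuel, and lipid droplets form in glia under stress.

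Levels are given in CPM, which are counts scaled to the size of the library, and levels of different genes are not compared because CPM ignores transcript length. A difference is a log2 fold change ± SE from edgeR's quasi-likelihood test, and a gene was called where the p-value, adjusted over the 18850 genes tested by the Benjamini-Hochberg method, was under 0.05. The labels do not tie the libraries to separate animals, and the p-values therefore cover only the variation among these libraries. AD-HFD against Sham and AD against Sham use the same Sham libraries, and AD-HFD against AD uses the AD libraries again. All 9 genes had log2 fold changes above 0 in the 3 comparisons, as had 51.6% of all genes tested in AD-HFD against Sham, 52.6% in AD-HFD against AD and 54.9% in AD against Sham.

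The libraries differed in more than their group. Summed levels of 7 general neuron markers ran from 1506 to 6531 CPM in AD-HFD, from 5064 to 5976 CPM in AD and from 7435 to 9512 CPM in Sham. Neuronal RNA was thus present throughout, and this sum was below every Sham library in both model groups. Rbfox3, Snap25 and Syt1 were each below every Sham library too, while Tubb3, Map2, Stmn2 and Eno2 overlapped Sham. Map2 stood at 1169 CPM in AD-HFD-3, above every Sham library. AD-HFD-3 and AD-3 were the libraries of their groups richest in cerebral cortex markers (9 of 10 in the table), with list means of 5.86 and 5.16 log2 CPM, against 3.36 to 4.33 in the other AD-HFD libraries, 1.10 to 1.87 in the rest of AD, while Sham stood at 6.14 to 6.53. AD-HFD-4 stood apart by 2476 summed CPM of the 7 of 9 endothelial markers found in the table. The other AD-HFD libraries had 250.1 to 704 CPM, the AD libraries 242 to 309 CPM and the Sham libraries 169.8 to 234 CPM, and Cldn5, a defining endothelial gene, was at 0 in 10 of 12 libraries. Of 8 red blood cell markers 6 were in the table. They summed to 4207 CPM in AD-HFD-4 and to 254 to 1138 CPM in the rest of its group, to 271 to 612 CPM in AD and to 159.7 to 362 CPM in Sham. The 8 of 10 markers of blood leukocytes and border macrophages in the table summed to 132 to 1028 CPM in AD-HFD, again with AD-HFD-4 on top, to 79.4 to 198 CPM in AD and to 37.7 to 52.6 CPM in Sham. Choroid plexus markers were high in AD-HFD-1, AD-HFD-2, Sham-2 and Sham-3 alone, at 557 to 10541 summed CPM against at most 31.4 CPM elsewhere. In bulk tissue, a change in the number of cells of a type and a change in RNA per cell cannot be told apart.

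Angptl4 encodes a secreted protein that blocks lipoprotein lipase and so limits fat uptake into tissues. It had the largest difference of the 9 genes between AD-HFD and Sham. It stood at 69.4, 67.6, 39.4 and 196 CPM in AD-HFD-1 to AD-HFD-4, at 12.6, 16.0, 30.3 and 25.3 CPM in AD-1 to AD-4, and at 4.41, 4.73, 4.22 and 5.73 CPM in Sham-1 to Sham-4. The 3 groups did not overlap: every AD-HFD library was above every AD library, and every AD library above every Sham library. Angptl4 averaged 93.1 ± 70.0 CPM in AD-HFD, 21.1 ± 8.19 CPM in AD and 4.77 ± 0.670 CPM in Sham (SD, n = 4 each).

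Angptl4 rose in AD-HFD against Sham, by 4.29 ± 0.49 on the log2 scale, a 19.5-fold difference (edgeR adjusted p = 0.00112). It also rose in AD against Sham, by 2.14 ± 0.455 (adjusted p = 0.0207). AD-HFD against AD gave the same 2.14 ± 0.441 but did not pass (adjusted p = 0.0605), although all 4 AD-HFD libraries lay above the highest AD library. Across all genes tested, 2.72% had such a separation upward between AD-HFD and AD. Without AD-HFD-3 or without AD-3 this difference passed (adjusted p = 0.00593 and 0.00662), and DESeq2 also called it (adjusted p = 0.000371). In these fits 5321, 5841 and 3138 of all genes were called, against 2 by edgeR with every library. Without AD-HFD-4 the difference between AD-HFD and AD was 1.48 (adjusted p = 0.141). The difference from Sham was 3.62 without AD-HFD-4, the library with the highest level. The call in AD against Sham was lost without AD-4, Sham-1, Sham-2, Sham-3 or Sham-4 (adjusted p 0.0547 to 0.0684), with log2 fold changes of 2.04 to 2.24, and with limma voom (adjusted p = 0.0656).

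**Figure D1:**
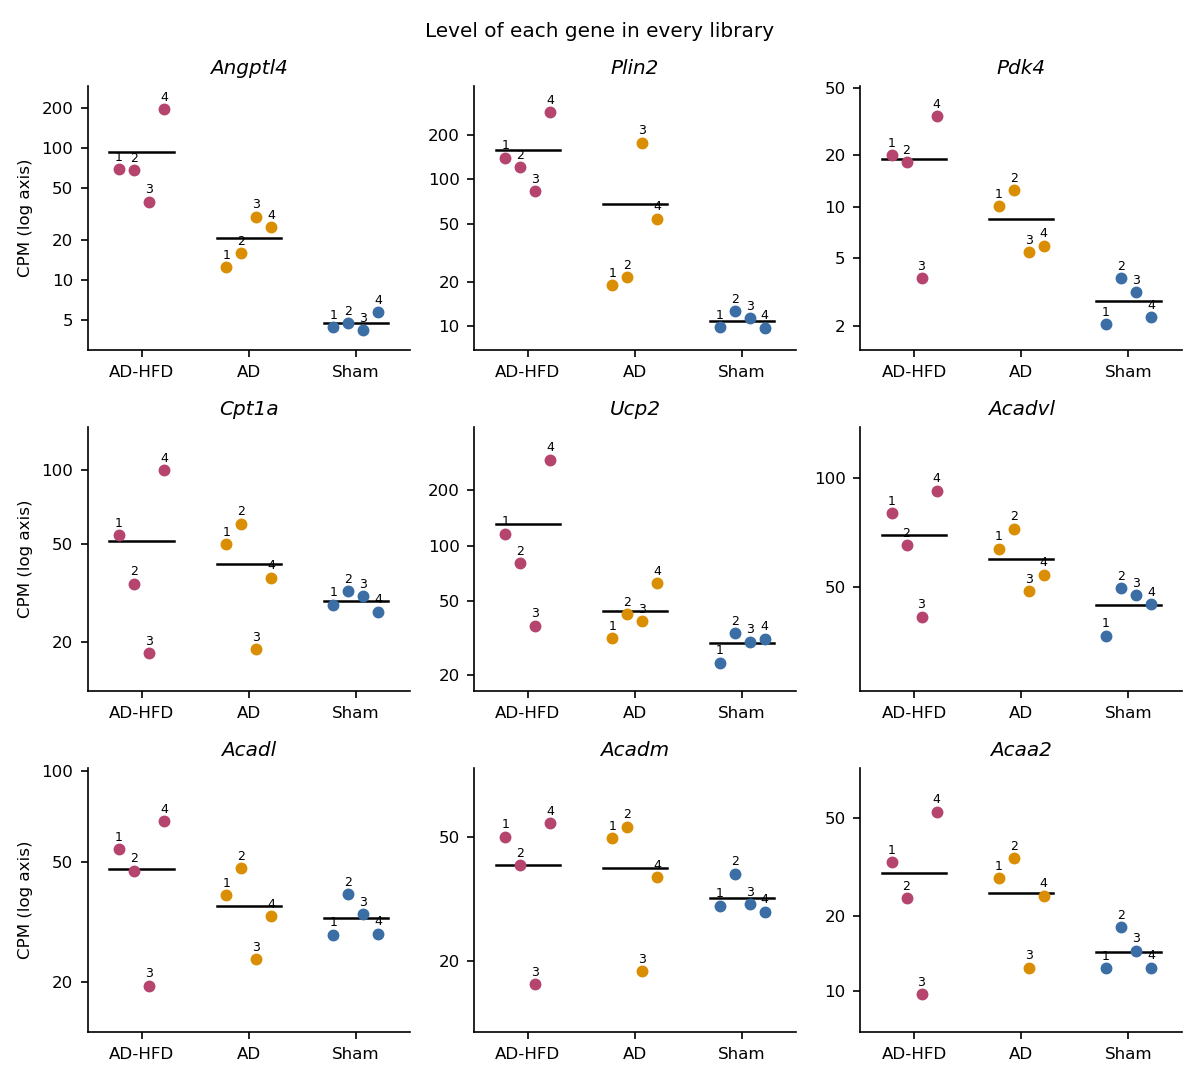
Level of each of the 9 genes in every library, in CPM on a log axis with its own range per gene; points are libraries labelled with their replicate number and bars are group means. Angptl4 separates the 3 groups, while AD-HFD-3 and AD-3 sit at or below the Sham points for Cpt1a, Acadl, Acadm and Acaa2, with AD-3 Acaa2 at 12.4 CPM inside the Sham range of 12.3 to 18.02 CPM.

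The window of 250 bases before to 50 bases after the annotated start of Angptl4 is shown because this gene had the largest difference of the 9. It lies at chr7:15258632-15258931 on the minus strand of GRCr8 in RefSeq and is written along the gene. No match to a PPAR response element, described with Acadvl, was found in these letters.
Angptl4: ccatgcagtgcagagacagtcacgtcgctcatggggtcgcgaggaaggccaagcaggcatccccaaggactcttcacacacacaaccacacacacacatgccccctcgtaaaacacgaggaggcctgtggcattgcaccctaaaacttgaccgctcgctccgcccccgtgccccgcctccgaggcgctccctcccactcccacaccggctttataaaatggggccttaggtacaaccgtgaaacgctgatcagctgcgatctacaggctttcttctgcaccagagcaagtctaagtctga

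Plin2 encodes perilipin 2, the protein that coats lipid droplets in most cells. It stood at 140.5, 121, 83.3 and 289 CPM in AD-HFD-1 to AD-HFD-4, at 19.1, 21.5, 178 and 54.1 CPM in AD-1 to AD-4, and at 9.87, 12.7, 11.4 and 9.78 CPM in Sham-1 to Sham-4. Every library of both model groups lay above every Sham library, but AD-3 alone held the level of the AD-HFD libraries, so these groups overlapped. Plin2 averaged 159 ± 90.4 CPM in AD-HFD, 68.1 ± 74.9 CPM in AD and 10.9 ± 1.38 CPM in Sham (SD, n = 4 each).

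Plin2 rose in AD-HFD against Sham by 3.86 ± 0.69 (14.5-fold, edgeR adjusted p = 0.00372) and in AD against Sham by 2.64 ± 0.657 (adjusted p = 0.0372). The second value rested in part on AD-3: without it the log2 fold change was 1.53 (adjusted p = 0.0434). That call was lost without AD-HFD-2, AD-4, Sham-1, Sham-2, Sham-3 or Sham-4 (adjusted p 0.0501 to 0.109), and in other settings, among them limma voom (adjusted p = 0.125). Between AD-HFD and AD, Plin2 differed by 1.22 ± 0.619 (adjusted p = 0.202). Without AD-3 this difference was 2.33 (adjusted p = 0.00566), and without AD-HFD-4 it was 0.76 (adjusted p = 0.489). With AD-3 as the 1 AD library it was -0.17, a fit in which that library is assumed to vary like the other groups.

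Pdk4 encodes pyruvate dehydrogenase kinase 4, which shuts off pyruvate entry into the citric acid cycle when fat is burned. It stood at 20.02, 18.3, 3.81 and 34.1 CPM in AD-HFD-1 to AD-HFD-4, at 10.1, 12.5, 5.42 and 5.91 CPM in AD-1 to AD-4, and at 2.05, 3.80, 3.16 and 2.24 CPM in Sham-1 to Sham-4. AD-HFD-3 was far below the rest of its group and only just above the highest Sham library. Pdk4 rose in AD-HFD against Sham by 2.76 ± 0.543 (6.77-fold, edgeR adjusted p = 0.00496). It did not pass in AD against Sham (1.59 ± 0.534, adjusted p = 0.0959), where the groups nevertheless did not overlap, nor in AD-HFD against AD (1.16 ± 0.504, adjusted p = 0.144). Without AD-HFD-3 both passed (adjusted p = 0.0159 and 0.011), while without AD-HFD-4 the difference between AD-HFD and AD was 0.72 (adjusted p = 0.394).

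Ucp2 encodes an uncoupling protein of the inner mitochondrial membrane, a carrier that is also abundant in immune cells. It stood at 116, 79.97, 36.9 and 292 CPM in AD-HFD-1 to AD-HFD-4, at 31.6, 42.4, 39.1 and 62.8 CPM in AD-1 to AD-4, and at 23.2, 33.5, 30.2 and 31.4 CPM in Sham-1 to Sham-4. The AD-HFD libraries were all above Sham, with AD-HFD-3 close to its upper end, and AD-1 lay inside the Sham range. Ucp2 rose in AD-HFD against Sham by 2.15 ± 0.492 (4.44-fold, edgeR adjusted p = 0.00888), and by 1.39 without AD-HFD-4 (adjusted p = 0.0176). It did not pass in AD-HFD against AD (1.58 ± 0.483, adjusted p = 0.0716) or in AD against Sham (0.57 ± 0.476, adjusted p = 0.498). Without AD-HFD-3 the difference between AD-HFD and AD passed (1.88, adjusted p = 0.00796), while without AD-HFD-4 it was 0.82 (adjusted p = 0.203).

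Within the AD-HFD group, Angptl4, Plin2, Pdk4 and Ucp2 were each highest in AD-HFD-4 and lowest in AD-HFD-3, as were all 9 genes. The endothelial list ran the same way, at 8.37 log2 CPM in AD-HFD-4, 6.69 in AD-HFD-1, 5.92 in AD-HFD-2 and 5 in AD-HFD-3. The leukocyte and border macrophage list ran at 5.37, 4.24, 3.75 and 2.08 log2 CPM in the same libraries, and the red blood cell list at 7.34, 5.44, 5.01 and 3.41. The oligodendrocyte list ran in that order too, at 10.69, 10.41, 10.35 and 8.36, as did the microglia list, at 5.17, 5.12, 4.83 and 4.35. General neuron markers ran in the opposite order, at 7.23, 7.78, 8.32 and 9.29. The part of these lists in the differences of the 9 genes was not tested. The endothelial list stood at 5.20 to 5.40 log2 CPM in AD and at 4.65 to 5.05 in Sham, and the leukocyte list at 2.03 to 2.75 in AD and at 0.09 to 0.58 in Sham. Of 7 adipocyte markers, leptin (Lep) was at 0 in all 12 libraries and adiponectin (Adipoq) at 0 in 7, with 3.91 CPM in AD-HFD-1 and with 5.18 CPM in Sham-2 and 4.39 CPM in Sham-3. The whole adipocyte list summed to 32.5 to 54.1 CPM in AD-HFD, 12.2 to 16.9 CPM in AD and 13.8 to 50.4 CPM in Sham. Most of each sum was Lpl, which is also 1 of the pathway genes and stood at 30.2 to 48.2 CPM in AD-HFD, 9.11 to 13.7 CPM in AD and 12.6 to 43.9 CPM in Sham.

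**Figure D2:**
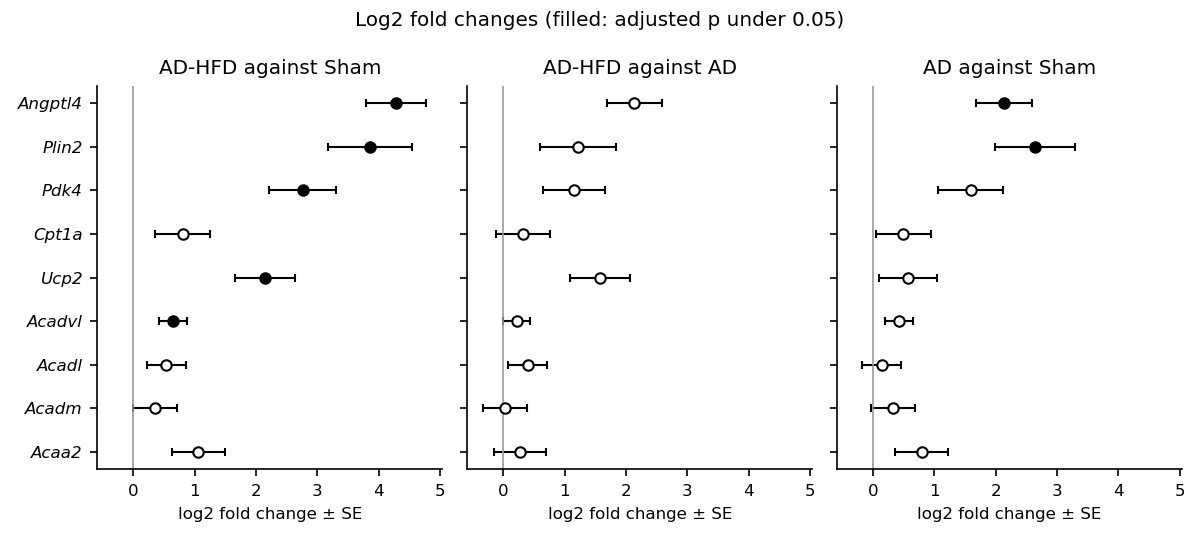
Log2 fold change ± SE of each gene in AD-HFD over Sham, AD-HFD over AD and AD over Sham, from edgeR's quasi-likelihood fit over all 12 libraries; filled points had an adjusted p under 0.05. All points lie above 0, from 4.29 for Angptl4 in AD-HFD against Sham to 0.03 for Acadm in AD-HFD against AD.

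Cpt1a encodes carnitine palmitoyltransferase 1A, the entry step of long-chain fatty acids into mitochondria. It stood at 54.4, 34.6, 18.04 and 99.9 CPM in AD-HFD-1 to AD-HFD-4, at 49.98, 60.7, 18.8 and 36.6 CPM in AD-1 to AD-4, and at 28.4, 32.2, 30.7 and 26.6 CPM in Sham-1 to Sham-4. The model groups spread on both sides of a narrow Sham range: AD-HFD-3 and AD-3 were below all Sham libraries and the other 6 model libraries above them. Cpt1a did not pass between AD-HFD and Sham (0.81 ± 0.448, edgeR adjusted p = 0.178), between AD-HFD and AD (0.32 ± 0.445, adjusted p = 0.651) or in AD against Sham (0.49 ± 0.447, adjusted p = 0.538). Without AD-HFD-3 it passed in AD-HFD against Sham (1.09, adjusted p = 0.0374), while without AD-HFD-4 it was 0.28 there (adjusted p = 0.633) and -0.22 between AD-HFD and AD (adjusted p = 0.768).

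Acadvl, Acadl and Acadm encode the acyl-CoA dehydrogenases for very long, long and medium chains, which take the first step of each round of beta-oxidation. Acadvl stood at 79.9, 65.1, 41.3 and 92.3 CPM in AD-HFD-1 to AD-HFD-4, at 63.7, 72.4, 48.6 and 54.02 CPM in AD-1 to AD-4, and at 36.6, 49.5, 47.3 and 44.7 CPM in Sham-1 to Sham-4. AD-HFD-3 and AD-3 lay inside the Sham range and the other 6 model libraries above it. Acadvl rose in AD-HFD against Sham by 0.65 ± 0.226 (1.56-fold, edgeR adjusted p = 0.0458), the smallest of the called differences among the 9 genes. This call lay close to the threshold: it was lost without AD-HFD-1, AD-HFD-2, AD-HFD-4, AD-1, AD-4 or any 1 Sham library, with adjusted p up to 0.138, and in other settings, among them limma voom, the legacy quasi-likelihood method, DESeq2 size factors, no filter or the compared groups alone. Acadvl did not pass in AD-HFD against AD (0.22 ± 0.225, adjusted p = 0.52) or in AD against Sham (0.42 ± 0.225, adjusted p = 0.278).

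PPARs bind a direct repeat, which was searched as AGGTCA, any 1 base, and AGGTCA again. RefSeq windows of 300 bases at the annotated start were found for 7 of the 9 genes, with 2 starts for Plin2, and not for Acadl and Acaa2. Both strands were searched for the repeat with up to 2 mismatches. It was found in 1 of the 7 genes, Acadvl, and in 3.77% of 33469 rat windows of the same length. The exact half-site, which the repeat can contain, was found in 16.2% of these windows and, among the 7, also in Acadvl alone. A match of letters does not show binding, and the absence of a match concerns these windows only. The Acadvl window lies at chr10:55236656-55236955 on the minus strand of GRCr8 and is shown because it holds the match. The capitals mark the repeat, which begins 17 bases before the start site and has 1 mismatch, A8T, counted from the first base of the repeat.
Acadvl: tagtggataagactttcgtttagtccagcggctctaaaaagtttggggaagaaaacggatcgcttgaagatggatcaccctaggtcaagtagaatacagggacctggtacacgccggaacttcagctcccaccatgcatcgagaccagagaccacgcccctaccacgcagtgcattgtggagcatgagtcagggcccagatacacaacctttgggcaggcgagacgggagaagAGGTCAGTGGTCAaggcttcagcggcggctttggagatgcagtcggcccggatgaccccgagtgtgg

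Acadl stood at 55.2, 46.8, 19.5 and 68.1 CPM in AD-HFD-1 to AD-HFD-4, at 38.8, 47.7, 23.8 and 33.1 CPM in AD-1 to AD-4, and at 28.7, 39.04, 33.6 and 28.96 CPM in Sham-1 to Sham-4. Again AD-HFD-3 and AD-3 were the 2 lowest of all 12 libraries, and the AD group otherwise overlapped Sham. Its log2 fold changes were 0.54 ± 0.321 in AD-HFD against Sham, 0.40 ± 0.32 in AD-HFD against AD and 0.14 ± 0.321 in AD against Sham, none of which passed (edgeR adjusted p 0.207, 0.407 and 0.833). Without AD-HFD-3 Acadl passed against both Sham (adjusted p = 0.0145) and AD (adjusted p = 0.049). Without AD-HFD-4 these differences were 0.32 (adjusted p = 0.501) and 0.18 (adjusted p = 0.769), and without AD-3 the difference between AD-HFD and AD was 0.25.

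Acadm stood at 50.1, 40.6, 16.9 and 55.4 CPM in AD-HFD-1 to AD-HFD-4, at 49.6, 53.9, 18.6 and 37.2 CPM in AD-1 to AD-4, and at 30.1, 38.1, 30.4 and 28.8 CPM in Sham-1 to Sham-4. The AD-HFD and AD groups covered nearly the same range, from a low library to 3 libraries near or above the Sham levels. Acadm differed by 0.35 ± 0.359 between AD-HFD and Sham (edgeR adjusted p = 0.464), by 0.03 ± 0.358 between AD-HFD and AD (adjusted p = 0.958) and by 0.32 ± 0.359 between AD and Sham (adjusted p = 0.627). Leaving out AD-HFD-3 gave 0.61 between AD-HFD and Sham, and leaving out AD-HFD-4 gave 0.17, neither of them called.

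Acaa2 encodes the mitochondrial 3-ketoacyl-CoA thiolase, which takes the last step of each round. It stood at 33.03, 23.6, 9.69 and 52.9 CPM in AD-HFD-1 to AD-HFD-4, at 28.4, 34.2, 12.4 and 24.2 CPM in AD-1 to AD-4, and at 12.3, 18.02, 14.5 and 12.4 CPM in Sham-1 to Sham-4. The 6 model libraries other than AD-HFD-3 and AD-3 all lay above Sham. Acaa2 had the largest differences of the 4 enzymes of the spiral, 1.06 ± 0.43 in AD-HFD against Sham (edgeR adjusted p = 0.0758) and 0.79 ± 0.429 in AD against Sham (adjusted p = 0.284), but did not pass. The difference between AD-HFD and AD was 0.27 ± 0.423 (adjusted p = 0.692). Without AD-HFD-3 the first value was 1.35 and was called (adjusted p = 0.00766), while without AD-HFD-4 it was 0.63 (adjusted p = 0.267) and the difference between AD-HFD and AD was -0.16.

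Counted together, 5 of the 9 genes rose in AD-HFD against Sham (Angptl4, Plin2, Pdk4, Ucp2 and Acadvl) and none fell, where 19.7% of all genes tested were called higher and 12.9% lower. In AD against Sham 2 rose (Angptl4 and Plin2) and none fell, where 3.07% of all genes were called higher and 3.16% lower. Between AD-HFD and AD, edgeR called none, and 0.0106% of all genes. An unadjusted p under 0.05 was found for 3 of the 9 genes, beside 30.5% of all genes. DESeq2 called Angptl4 and Ucp2, and 3138 of all genes. At an edgeR adjusted p under 0.1, Angptl4 and Ucp2 were higher in AD-HFD than in AD, as were 10.4% of all genes. The median log2 fold change of the 9 genes was 1.06 in AD-HFD against Sham, 0.40 in AD-HFD against AD and 0.57 in AD against Sham, beside 0.03, 0.04 and 0.06 over all genes tested. The 9 genes were chosen with earlier results of these data known, so setting them beside all genes is a description only. The libraries of the groups did not overlap for 4 of the 9 genes in AD-HFD against Sham (18.9% of all genes were wholly higher), 1 in AD-HFD against AD (2.72%) and 3 in AD against Sham (10.3%).

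These counts moved with single libraries. Leaving out AD-HFD-3 gave 8 genes for AD-HFD against Sham and 4 for AD-HFD against AD, where 8615 and 5321 of all genes were called. Leaving out AD-3 gave 2 for AD-HFD against AD, where 5841 of all genes were called. In AD against Sham the count of the 9 was 1 without AD-HFD-2, where 944 of all genes were called. It was 0 without AD-4 or any 1 Sham library, where edgeR called 302 to 529 of all genes. In each of these AD against Sham fits 3 of the 9 genes had an unadjusted p under 0.05. With AD-3 and AD-HFD-3 both left out, an alternative added once the values were known, 9 genes were called in AD-HFD against Sham, 4 in AD-HFD against AD and 6 in AD against Sham. That fit also called many more genes in all, 10245, 8630 and 3875, against 6162, 2 and 1174 with every library. Leaving out the 4 libraries rich in choroid plexus markers leaves 2 libraries in AD-HFD and in Sham, and edgeR then called none of the 9. In AD-HFD against Sham, AD-HFD against AD and AD against Sham, 4, 2 and 3 of them had an unadjusted p under 0.05. Of all genes, 3987, 2695 and 2611 had one, in the same order, and 0, 0 and 4 were called.

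**Figure D3:**
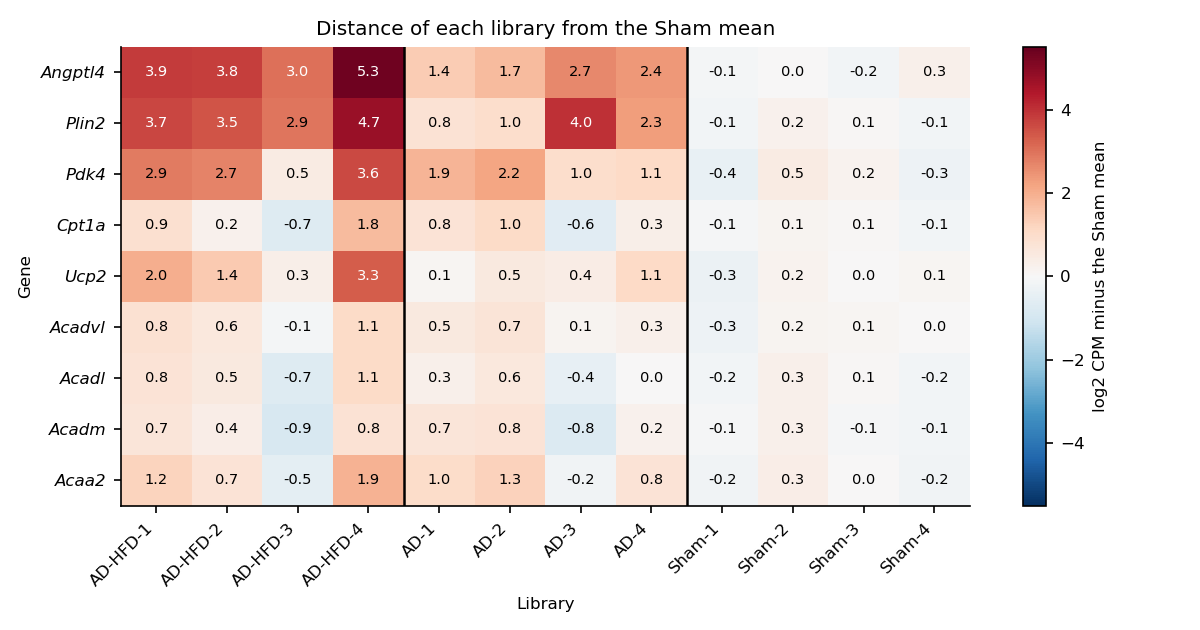
Each cell gives the log2 CPM of a gene in a library minus the mean of the 4 Sham libraries, with AD-HFD, AD and Sham libraries from left to right; red is above and blue below that mean. Angptl4 and Plin2 are above it in all 8 model libraries, whereas Cpt1a, Acadl, Acadm and Acaa2 are below it in AD-HFD-3 and AD-3.

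The 9 genes fell into different patterns over the libraries. Cpt1a, Acadvl, Acadl, Acadm and Acaa2 had their lowest level of the group in AD-HFD-3 and in AD-3, and their highest in AD-HFD-4, AD-2 and Sham-2, for 5 of 5 genes in each case. Pdk4 followed them within groups more closely than it followed Plin2: with group means removed, Pearson's r over the 12 libraries was 0.98 with Acadl and 0.97 with Acadvl, but 0.07 with Plin2. Among the 5 oxidation genes, r with group means removed ran from 0.89 for Acadvl with Acadm to 0.98 for Acaa2 with Cpt1a and with Acadl. Plin2 stood apart from them, at 0.02 with Acadvl and -0.29 with Acadm. Angptl4 was nearest to Ucp2 (0.87) and Plin2 (0.79). These correlations describe 12 libraries that share differences in composition. In AD-3, Plin2 was at 178 CPM while Acadm was at 18.6 CPM.

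The oligodendrocyte list (7 of 7 markers tested) was also lowest within its group in AD-HFD-3 and AD-3, at 8.36 log2 CPM against 10.35 to 10.69 in the other AD-HFD libraries, and at 9.23 against 9.82 to 10.87 in the other AD libraries. It stood at 8.85 to 9.94 in Sham. The astrocyte list (9 of 9 markers tested) was at 7.53 in AD-HFD-3 against 6.90 to 7.93 in the other AD-HFD libraries, and at 7.35 in AD-3 against 7.83 to 8.05 in the other AD libraries. Within AD, Aqp4, Aldh1l1, Gja1, Aldoc, S100b and Sox9 were lowest in AD-3, and Slc1a3 and Slc1a2 were in between. Gfap was highest there, at 2519.9 CPM against 473 to 1228 CPM in the other AD libraries. In AD-HFD-4 Gfap was at 252 CPM, against 1874 to 3893 CPM in the rest of its group. The microglia list stood at 4.35 to 5.17 log2 CPM in AD-HFD, 4.35 to 4.59 in AD and 4.02 to 4.16 in Sham. The thalamus list stood at 1.47 to 2.11 in AD-HFD, at 1.44 in AD-3 but 4.10 to 6.21 in the other AD libraries, and at 1.30 to 2.23 in Sham. The hypothalamus list reached 4.89 in AD-4, against at most 0.61 in the other 11 libraries, and the leptomeningeal list ran from 3.04 to 5.25 in AD-HFD, 2.04 to 3.61 in AD and 2.79 to 4.64 in Sham. The part of these differences in the levels of the oxidation genes was not tested.

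The genes whose pattern was most like that of each called gene were taken by the highest Pearson's r of log2 CPM over the 12 libraries, among 13157 genes with a mean of at least 1 CPM. For Angptl4 these were Il4r (r = 0.992), Dock8 (0.988) and Folr2 (0.987). Il4r stood at 34.9 to 246 CPM in AD-HFD, with its highest value in AD-HFD-4, at 14.3 to 46.8 CPM in AD and at 6.16 to 7.40 CPM in Sham. For Plin2 they were A3galt2 (0.993), Adamts1 (0.993) and Nfil3 (0.992), and Adamts1 shared the AD-3 peak of Plin2, at 256 CPM in AD-3 against 14.8 to 47.5 CPM in the other AD libraries. For Pdk4 they were Cers2 (0.981), Emilin2 (0.979) and Btd (0.977), for Ucp2 Aph1a (0.983), Pdia6 (0.981) and Hdac1 (0.980), and for Acadvl Fkbp14 (0.987), Snx1 (0.975) and Emilin2 (0.971). With group means removed these values were 0.896 to 0.983.

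Other genes of the same pathway moved in both directions in AD-HFD. Of 80 genes in 8 lists, 72 were tested, and in AD-HFD against Sham 13 rose and 11 fell (edgeR adjusted p under 0.05), with a median of 0.09, shares near those of all genes (19.7% higher and 12.9% lower). The count of 24 was 14 without AD-HFD-4, 12 without Sham-1 and 14 without Sham-4, and 12 of the 24 genes stayed called whichever 1 of the 12 libraries was left out. Among lipid droplet and lipolysis genes 4 of 10 rose and none fell (median 1.04). Plin3, another droplet coat protein, rose by 2.62 ± 0.613 and averaged 16.2 ± 14.7 CPM in AD-HFD and 2.64 ± 1.25 CPM in Sham (SD, n = 4). Lipe, the hormone-sensitive lipase, rose by 2.26 ± 0.477, Hilpda, a droplet protein that inhibits lipolysis, by 1.59 ± 0.373, and Abhd5, the coactivator of adipose triglyceride lipase, by 1.17 ± 0.284. These 4 were among the 12 that stayed called.

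Of 8 receptors and coactivators 1 rose. Ppard, the PPAR most widely expressed across tissues, rose by 0.94 ± 0.24 (edgeR adjusted p = 0.0136) and averaged 58.4 ± 15.7 CPM in AD-HFD, 54.8 ± 15.8 CPM in AD and 30.4 ± 3.40 CPM in Sham (SD, n = 4 each). The same gene missed the threshold in AD against Sham (0.85 ± 0.24, adjusted p = 0.0569). In AD-HFD against Sham, Ppara, the receptor best known for switching on fatty acid oxidation in liver, differed by 0.21 ± 0.297 (adjusted p = 0.609). Pparg, the receptor of fat cells, differed by 0.65 ± 0.569 (0.393), and the coactivator Ppargc1a by -0.80 ± 0.36 (0.105). Levels of Ppara and Pparg were low, averaging 1.30 and 1.16 CPM in AD-HFD and 1.12 and 0.739 CPM in Sham. Without AD-HFD-3 Ppargc1a fell by 1.29 (adjusted p = 0.00392), and without AD-HFD-4 it was -0.54 (adjusted p = 0.21). Pparg was 0.35 without AD-HFD-1, 0.33 without Sham-2 and 1.02 without Sham-3, none of them called.

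The carnitine and oxidation lists were mixed. Of 7 carnitine shuttle genes, Cpt1b, the muscle form of the entry enzyme (1.21 ± 0.351), and Slc22a5, the carnitine importer (1.05 ± 0.321), rose, and Cpt1c, the form found in neurons, fell by 0.83. Of 12 other mitochondrial beta-oxidation genes, Etfa, an electron carrier subunit, rose (0.77 ± 0.271) and Acad9 fell by 0.40. Of 9 peroxisomal genes, Hsd17b4 (0.66 ± 0.184) and Acox3 (0.51 ± 0.155), enzymes of peroxisomal beta-oxidation, rose, and Abcd2, a peroxisomal fatty acid transporter, fell by 2.34 and averaged 8.62 ± 3.14 CPM in AD-HFD and 43.8 ± 6.91 CPM in Sham (SD, n = 4). Cpt1b had low levels, averaging 2.30 ± 0.778 CPM in AD-HFD, 2.58 ± 0.688 CPM in AD and 1.00 ± 0.353 CPM in Sham (SD, n = 4 each). It was also the 1 pathway gene called in AD against Sham (1.37 ± 0.349, edgeR adjusted p = 0.0405). That call was lost without AD-HFD-2, AD-1, AD-4, or any 1 Sham library (adjusted p 0.0512 to 0.114).

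Among the ketone body genes, Bdh1 (-0.84 ± 0.186), Oxct1 (-0.70 ± 0.221) and Acat1 (-0.58 ± 0.167), which act in the use of ketone bodies, fell in AD-HFD against Sham (edgeR adjusted p under 0.05). Of 12 uptake and activation genes, Fabp5, a fatty acid binding protein, rose (1.13 ± 0.35), while the acyl-CoA synthetases Acsl6 (-1.29 ± 0.269) and Acsl3 (-0.61 ± 0.163) and the binding protein Fabp3 (-1.23 ± 0.322) fell. Of 9 other relatives, Angptl2 rose (1.74 ± 0.454), and Slc25a14, a brain uncoupling protein (-1.12 ± 0.276), and Pdk2 (-0.94 ± 0.266), a relative of Pdk4, fell. General neuron markers were lower in AD-HFD than in Sham by the sums given above, and their part in these falls was not tested. In AD-HFD against AD no pathway gene was called by edgeR. Of the 72 tested, 20 had an unadjusted p under 0.05, beside 30.5% of all genes. DESeq2 called 9 pathway genes and 3138 genes in all. Leaving out AD-HFD-3 gave 19 pathway genes and 5321 genes in all, and leaving out AD-3 gave 19 and 5841.

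**Figure D4:**
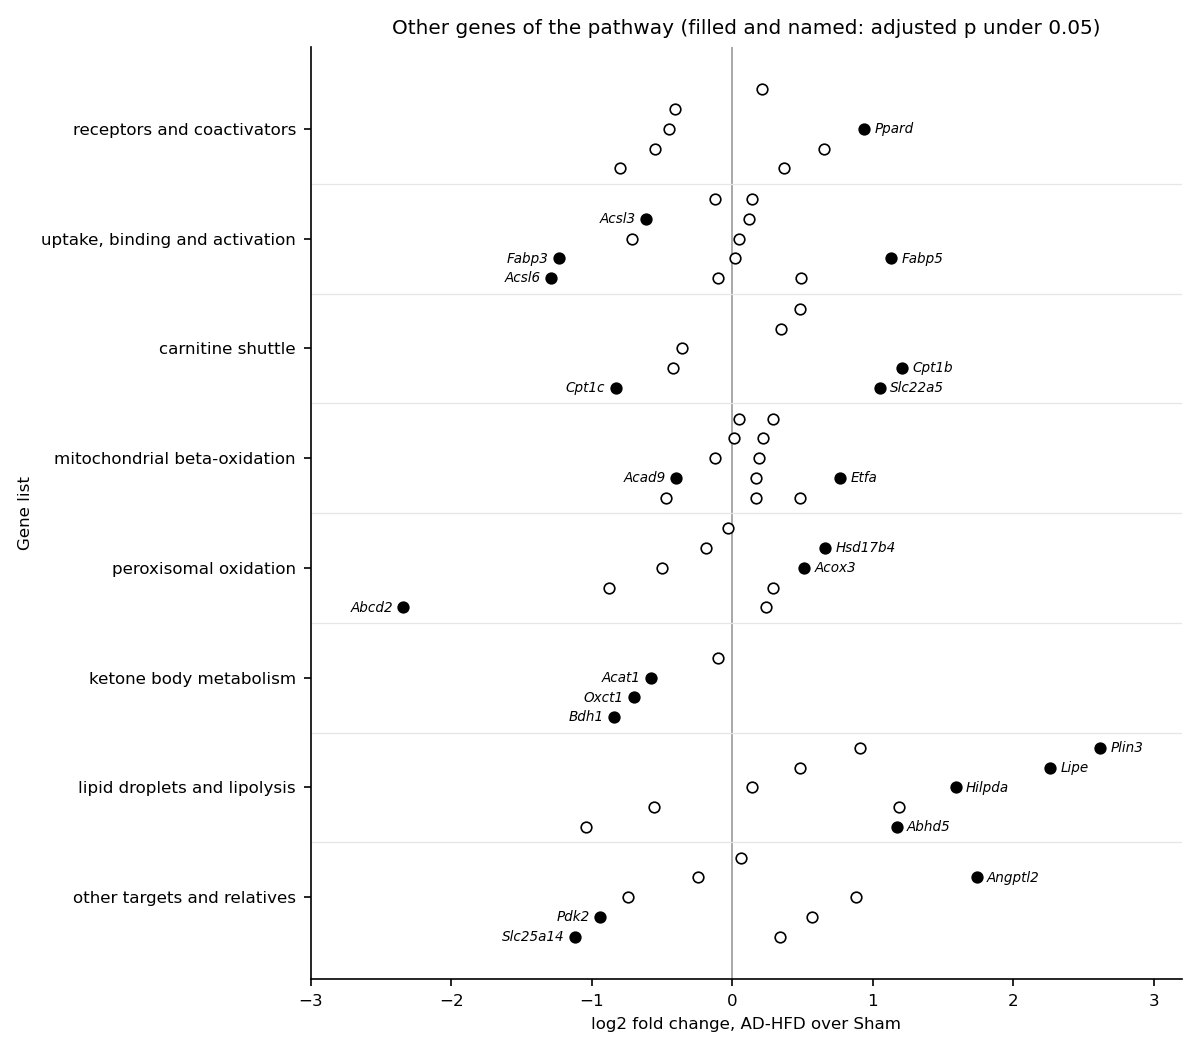
Log2 fold change in AD-HFD over Sham of 71 of the 72 tested genes in the 8 pathway lists, 1 row per list; each point is a gene, filled and named where its adjusted p was under 0.05, and the height within a row only spreads the points. The lipid droplet list has 4 filled points, all above 0 and up to 2.62 for Plin3, and the ketone body list has 3 below 0.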

How the data were processed

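The authors deposited raw counts per gene for 12 brain libraries, with total counts of 26668974 to 35351792. Per the submitters' processing notes, FastQC and Trimmomatic were used; the aligner, counter, strand setting and build are not given in the sources used here. Whether overlapping genes on opposite strands were counted apart is thus not known. The counts were tested with edgeR 4.0.16 under R 4.3.3 (filterByExpr, TMM scaling, non-legacy quasi-likelihood fit, 1 mean per group over 12 libraries; 18850 genes tested), with DESeq2 1.42.0 and limma 3.58.1 voom as alternatives. The SE is the log2 fold change divided by the square root of F. CPM use TMM-scaled sizes, and list means and correlations use log2 CPM with a prior count of 2. The tests were also run on simulated counts, with outcomes not given here. Those counts held no differences in tissue content between libraries, so they do not show how the tests behave under such differences. Groups and replicate numbers come from the library names. No pair of libraries of the same group agreed within sampling noise. The members and gene lists were chosen with earlier results of these data known. All 9 members are named, with at most 4 called genes per pathway list and comparison, the receptors Ppara, Ppard, Pparg and Ppargc1a, and the 3 genes of most similar pattern for each called member, except 1 pathway gene that is not reported here. Promoter windows are RefSeq's (GRCr8).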

Additional observations from a re-analysis of the deposited data

How the results depend on the processing

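The 9 genes are well covered by these depths, and the limits include the spread between libraries and their differences in tissue content. The replicate numbers were not treated as pairs. Deviations of same-numbered libraries from their group means correlated at -0.32 to 0.09, and those of differently numbered libraries at -0.33 to 0.40. As tissue content also differed between libraries, these values cannot settle whether libraries were paired. With a replicate block the numbers of genes, of the 9 members and of pathway genes called were 851, 1 and 0 in AD against Sham, and 5 genes in all were called in AD-HFD against AD. In AD-HFD against Sham they were 5156, 4 and 21. The block ended the calls of Plin2 in AD against Sham (2.19, adjusted p = 0.0966) and of Acadvl in AD-HFD against Sham (0.60, adjusted p = 0.076). For AD against Sham (1174 genes, 2 members and 1 pathway gene), the count of genes was 2363 on the compared groups alone, 2604 by DESeq2, 2801 without AD-HFD-3 and AD-HFD-4, 4 without the choroid-rich libraries, 3875 without AD-3 and AD-HFD-3, and 2343 at an adjusted p under 0.1. Leaving out 1 library gave 302 to 2329. Members called were 0 with limma voom (2 at an unadjusted p under 0.05), 0 without the choroid-rich libraries, 6 without AD-3 and AD-HFD-3, and 0 to 3 leaving out 1 library. Pathway genes called were 0 with limma voom (16 at an unadjusted p under 0.05), with the legacy method (19) and without the choroid-rich libraries (9), 10 on the compared groups, 9 by DESeq2, 6 with AD-3 as the 1 AD library, 10 without AD-HFD-3 and AD-HFD-4, 14 without AD-3 and AD-HFD-3, 8 at an adjusted p under 0.1, and 0 to 7 leaving out 1 library.

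For AD-HFD against AD (2 genes, 0 members and 0 pathway genes by edgeR, with 5751, 3 and 20 at an unadjusted p under 0.05), the count of genes was 0 on the compared groups, with AD-3 as the 1 AD library or without the choroid-rich libraries (3917, 1311 and 2695 at an unadjusted p under 0.05), 3138 by DESeq2, 1896 without AD-HFD-3 and AD-HFD-4, 8630 without AD-3 and AD-HFD-3 and 3422 at an adjusted p under 0.1. Leaving out 1 library gave 0 to 5841. Members called were 2 by DESeq2, 2 without AD-HFD-3 and AD-HFD-4, 4 without AD-3 and AD-HFD-3, 2 at an adjusted p under 0.1 and 0 to 4 leaving out 1 library; pathway genes were 9, 9, 33, 11 and 0 to 19 in the same order. For AD-HFD against Sham (6162, 5 and 24), all 3 counts were 0 without the choroid-rich libraries (3987, 4 and 17 at an unadjusted p under 0.05), 10245, 9 and 41 without AD-3 and AD-HFD-3, and 3514 to 8615, 4 to 8 and 12 to 32 leaving out 1 library.

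With AD-3 as the 1 AD library, assumed to vary like the other groups, AD against Sham turned to -0.65 for Cpt1a, -0.46 for Acadl, -0.78 for Acadm and -0.21 for Acaa2, and AD-HFD against AD to -0.17 for Plin2. Acadm in AD-HFD against AD was 0 with DESeq2 size factors, -0.02 without a filter and on the compared groups, -0.14 without the choroid-rich libraries and -0.01 without AD-3 and AD-HFD-3, and -0.20 to 0.29 leaving out 1 library. Leaving out 1 library gave -0.22 to 0.60 for Cpt1a and -0.16 to 0.56 for Acaa2 in AD-HFD against AD, and 0 to 0.29 for Acadl in AD against Sham. Ppara in AD-HFD against Sham was -0.28 without the choroid-rich libraries and -0.06 to 0.40 leaving out 1 library. The cause of these changes was not tested.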
